A study of Mus musculus with 32 samples.

Results

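At 3 h after hypoxia-ischemia (HI), RNA of the injured hemisphere of 5-day-old mice (P5) was compared with RNA of naive pups of the same age on 3 of the 32 arrays of the study, those labelled as HI at day 5 with collection at 3 h. On each array the log2 ratio of the HI signal to the naive signal was taken for every feature, an oligonucleotide printed on the array, and 18380 of 39429 features, standing for 15225 genes, reached a mean signal of 100 in at least 1 channel and were tested against 0. The mice were of the NMRI strain. The right carotid artery was ligatured for good under isoflurane, and after 1 h with the dam the pups breathed 8% oxygen for 40 min. Naive pups of the same litters had neither ligature nor hypoxia, so that the effect of anesthesia, surgery and separation cannot be told apart from that of HI. Each channel held a pool of RNA from the right hemispheres of 6 sex-matched animals, without the olfactory bulb and cut in front of the colliculi, and a replicate is a pair of such pools. The HI pool carried the dye Cy5 and the naive pool Cy3 on all 3 arrays, with no dye swap. The remaining arrays held P5 pups at 6, 12 and 24 h, P10 pups (10 days old) at 3 to 24 h, and naive pools of P2 and P15 pups (2 and 15 days old).

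In this model the ligature lowers blood flow to one side of the brain, and the added hypoxia deprives that hemisphere of oxygen and glucose. The first transcripts to answer such an insult are immediate early genes, which are switched on by kinases acting on transcription factors already present in the cell, without new protein synthesis. They encode transcription factors of the AP-1, EGR and NR4A families and feedback inhibitors. Genes under hypoxia-inducible factor (HIF), heat shock factors, the integrated stress response and NF-kappaB follow on a similar or slower course.

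From 58.6 to 70.2% of features stood clear of background in naive pools and 63.3 to 70.7% in HI pools, and no feature was saturated. The log2 ratios of the 3 arrays correlated across features with Pearson r of 0.59 to 0.67, and the median SD of a feature over the 3 arrays was 0.12. The tissue is labelled brain, and all 9 neuron markers and all 7 astrocyte markers were above background in the 3 naive pools. One pool stood apart. In replicate 1 the naive signal was 1970 for Pomc, 328 for Gh and 483 for Cga, all hormone genes of the pituitary, against 362, 37.3 and 57.0 in the HI pool of that array. The summed signal of the tested pituitary markers was 2780 in that naive pool, 421 and 451 in the other naive pools and 456 to 614 in the HI pools. The part of this difference in other genes was not tested. Without replicate 1, 248 genes were induced and 80 repressed.

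HI induced 341 genes at 3 h, 2.24% of those tested, and repressed 81, or 0.532%. A call required an adjusted p under 0.05 by limma with Benjamini-Hochberg correction and a change over 1.5-fold. Among the 11894 tested genes that RefSeq names, 267 were induced (2.24%) and 69 were repressed (0.58%). The median fold change was 1.88 for induced and 1.6 for repressed genes, and 141 induced genes exceeded 2-fold, 29 exceeded 4-fold and 10 exceeded 8-fold, against 5 repressed genes over 2-fold. The ratio had the same sign on the 3 arrays for 340 of 341 induced and 81 of 81 repressed genes. Of the induced genes, 64 reached the signal limit through the HI channel alone, which a gene can do by being induced, and 21 of the repressed genes reached it through the naive channel alone. Of 75 called genes with several tested features, 21 had every feature called.

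**Figure D1:**
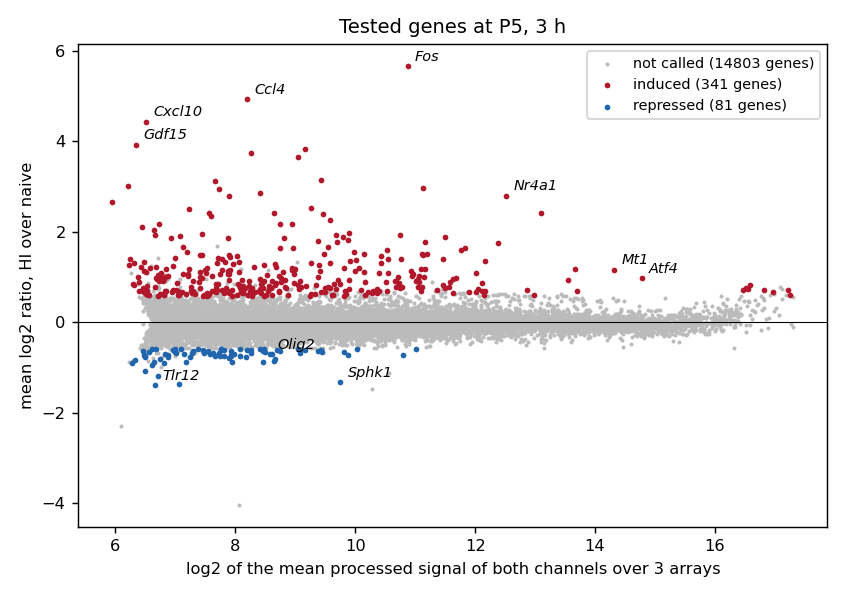
Mean log2 ratio of HI over naive (y axis) against the log2 of the mean processed signal of both channels (x axis), 1 point per tested gene at P5, 3 h. Induced genes (red, 341) lie at all signals, from Gdf15 and Cxcl10 at the dim end to Atf4 and Mt1 at the bright end, whereas no repressed gene (blue, 81) lies at the bright end.

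The plot of ratio against signal shows where the repressed genes stood: 30 of the 81 (37.0%) had a mean naive signal under 200, against 19.3% of tested genes. The repressed count moved further with the background correction than the induced count did. With normexp background correction and loess from the raw signals, 279 genes were induced and 15 repressed. With Benjamini-Hochberg correction the methods' t-test against zero left 0 genes in either direction and without correction 398 induced and 79 repressed genes. At an unadjusted p under 0.05 in limma 531 genes passed the same fold limit.

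The 12 most induced named genes were 5 immediate early transcription factors (Fos, Fosb, Maff, Atf3 and Egr1), 4 chemokines (Ccl4, Cxcl10, Ccl2 and Ccl7), the stress cytokine gene Gdf15, the matricellular gene Ccn1 and the small GTPase gene Gem. Fos, which encodes a subunit of the AP-1 transcription factor, had a naive signal of 73.5, 95.8 and 52.3 in replicates 1 to 3 and an HI signal of 3230, 4400 and 3390. Every HI pool lay far above every naive pool. The log2 ratios of 5.46, 5.53 and 6.03 gave a mean of 5.67 ± 0.31 (SD, n = 3), a 51.0-fold induction with the lowest adjusted p of all features (limma, adjusted p = 6.22e-11). Its relative Fosb rose by a log2 ratio of 3.84 ± 0.23, or 14.3-fold (limma, adjusted p = 7.63e-09), from naive signals of 89.3, 95.3 and 41.1 to 1420, 1140 and 635.

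Atf3 is a stress-induced repressor of the ATF/CREB family and Maff a small basic leucine zipper partner of several such factors. The Atf3 signal was 67.8, 97.0 and 67.5 in the naive and 733, 1190 and 1000 in the HI pools, a mean log2 ratio of 3.65 ± 0.23. The Maff signal was 33.3, 69.3 and 29.2 against 462, 815 and 436, with a mean of 3.75 ± 0.18. Egr1, a zinc finger factor that follows synaptic activity and growth factors, started from a higher naive signal of 567, 723 and 292 and reached 4420, 4620 and 2810, a mean of 2.97 ± 0.30. For these 3 genes the naive and HI signals did not overlap, and the adjusted p (limma) was 1.05e-07, 8.18e-08 and 1.5e-07. The most induced genes were chosen on the same arrays, so the lack of overlap is a description.

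**Figure D2:**
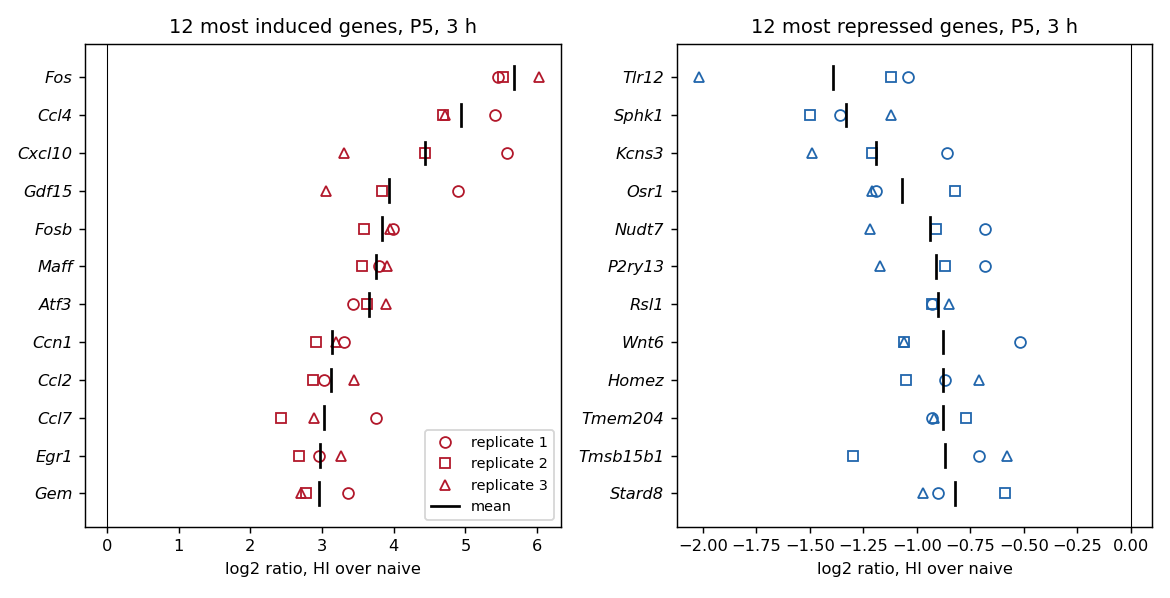
Log2 ratio of HI over naive on each of the 3 arrays (symbols) and their mean (black bar) for the 12 most induced (left) and the 12 most repressed (right) named genes at P5, 3 h. Fos lies between 5.46 and 6.03 on the 3 arrays, Cxcl10 and Gdf15 spread over more than 1 log2 unit, and no repressed gene but Tlr12 has a mean under -1.33.

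The spread between replicates differed among these genes, as the plot by array shows. Cxcl10, which encodes a chemokine for T cells, had ratios of 5.58, 4.43 and 3.31 (mean 4.44 ± 1.14, adjusted p = 2.77e-05 by limma), and its naive signal of 5.53 to 9.87 was not well above background on 2 of 3 arrays. Gdf15, a divergent member of the TGF-beta family, had 4.90, 3.84 and 3.06 (mean 3.93 ± 0.92, adjusted p = 8.93e-06 by limma), with 1 naive pool not well above background. For both genes replicate 1 was highest and replicate 3 lowest, and the size of the fold change rests on dim naive signals. Gem, whose product restrains calcium channels, had closer ratios of 3.36, 2.77 and 2.71 (mean 2.95 ± 0.36).

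Members and lists were chosen with earlier results of these data known, so the counts given for lists, here and below, are a description. Of 24 immediate early transcription factors listed 20 were tested. Of these, 17 were induced and none was repressed, against 2.24% of all tested genes induced. They were Fos, Fosb, Jun, Jund, Egr1, Egr2, Egr4, Npas4, Nr4a1, Ier2, Klf2, Klf4, Klf6, Klf10, Atf3, Maff and Srf. The members not yet described ranged from 0.61 (Klf6) to 2.85 (Egr2) in mean log2 ratio. Nr4a1, an orphan nuclear receptor, went from naive signals of 1350, 2200 and 933 to HI signals of 9810, 14000 and 6830, a 6.97-fold induction (limma, adjusted p = 8.71e-09). Npas4, a factor that neurons switch on with calcium entry, had ratios of 1.81, 1.69 and 1.94. Fosl2 (0.33), Nr4a2 (0.36) and Myc (0.05) were tested and not called. Junb, Fosl1, Egr3 and Nr4a3 stayed below the signal limit. Junb (1.88), Nr4a3 (1.94) and Fosl1 (1.14) had ratios over the fold limit there, which were not tested. Of the members tested, 6 reached the limit through the HI channel alone. Without any signal filter 19 of 24 were induced, and without 1 replicate 15 to 17. The median over tested members was 1.93, against -0.03 over all named genes tested.

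Promoter sequence was looked up for these genes because CREB and serum response factor, which act on immediate early genes, bind short known motifs. The core of the cAMP response element, TGACGT on either strand, was present between 250 bases before and 50 bases after a RefSeq start (GRCm38.p6) in 8.37% of 27025 genes, in 13.3% of the tested genes with such an entry, in 47 of 223 induced genes (21.1%) and in 4 of 57 repressed genes (7.02%). The whole element TGACGTCA, which holds the core on each strand, was present in 2.03% of all genes, 3.72% of tested and 7.17% of induced genes. Of 18 immediate early factors with an entry 7 held the core: Fos, Egr2, Egr4, Npas4, Nr4a3, Atf3 and Maff. The CArG box that serum response factor binds, searched on both strands, was present in 1.81% of all genes and 1.58% of tested genes. It was present in 6 of 223 induced genes (2.69%) and, on the list, in Egr2 and Srf. The stretches below end at the base before the RefSeq start and were chosen to show such matches in strongly induced genes. Maff and Egr2 have other RefSeq starts, not shown, some of them without a core or CArG box in that stretch. Capitals mark the core, the whole element in Maff and Dusp1 and, in Egr2, first the CArG box and then the core on the opposite strand. A match is a string of letters and was not tested for binding.
Fos, chr12:85473770-85473889, + strand: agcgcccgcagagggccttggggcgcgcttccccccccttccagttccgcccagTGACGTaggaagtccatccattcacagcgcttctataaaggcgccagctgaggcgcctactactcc
Atf3, chr1:191183334-191183453, - strand: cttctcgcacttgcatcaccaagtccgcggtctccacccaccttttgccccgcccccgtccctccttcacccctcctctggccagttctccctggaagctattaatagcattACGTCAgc
Maff, chr15:79347400-79347519, + strand: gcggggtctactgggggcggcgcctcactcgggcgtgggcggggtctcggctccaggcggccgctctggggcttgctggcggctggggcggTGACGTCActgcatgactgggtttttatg
Egr2, chr10:67537749-67537868, + strand: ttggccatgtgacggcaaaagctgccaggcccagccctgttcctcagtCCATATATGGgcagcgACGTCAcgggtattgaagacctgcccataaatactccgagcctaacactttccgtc
Ccn1, chr3:145649986-145650105, - strand: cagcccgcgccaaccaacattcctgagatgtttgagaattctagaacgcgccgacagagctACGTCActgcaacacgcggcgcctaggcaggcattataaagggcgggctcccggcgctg
Dusp1, chr17:26508473-26508622, - strand: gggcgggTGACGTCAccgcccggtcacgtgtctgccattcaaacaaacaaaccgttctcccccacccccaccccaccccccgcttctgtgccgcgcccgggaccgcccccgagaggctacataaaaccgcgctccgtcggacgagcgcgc

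The genes shown above covered much of the range of induction, from 4.49-fold for Dusp1 to 51.0-fold for Fos. Ccn1 encodes a secreted protein that binds integrins, and its log2 ratios of 3.31, 2.91 and 3.20 gave an 8.82-fold induction. Egr2, with naive signals of 101, 109 and 49.0, reached 702, 644 and 445, a 7.2-fold induction. Dusp1, a phosphatase that inactivates MAP kinases, rose from 156, 236 and 154 to 826, 930 and 670.

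The genes that act downstream of activity or hold MAP kinase signaling in check were induced in smaller shares. Of 20 activity-regulated effectors 18 were tested. Of these, 8 were induced (Arc, Homer1, Gem, Gadd45b, Sik1, Ier3, Nfil3 and Btg2) and none repressed, against 2.24% of all tested genes induced. Arc, which governs the removal of AMPA receptors from synapses, had ratios of 2.30, 1.68 and 1.92, and Gadd45b, a stress-inducible gene, had 2.53, 2.31 and 1.94. Bdnf, with a mean of 0.58, and Inhba, with -0.24, were not called. Of 15 MAPK feedback inhibitors 11 were tested and 7 were induced, against 2.24% of all tested genes. They were Dusp1, Dusp4, Dusp6, Dusp14, Dusp16, Spry1 and Errfi1. The ratios of Errfi1, an inhibitor of the EGF receptor, were 1.20, 1.06 and 1.15. Dusp4, with a mean of 1.06 ± 0.25, lost its call without any 1 of the replicates. The HI channel alone brought 2 of the effectors and 0 of the feedback inhibitors into the test. List medians were 0.49 and 0.72.

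**Figure D3:**
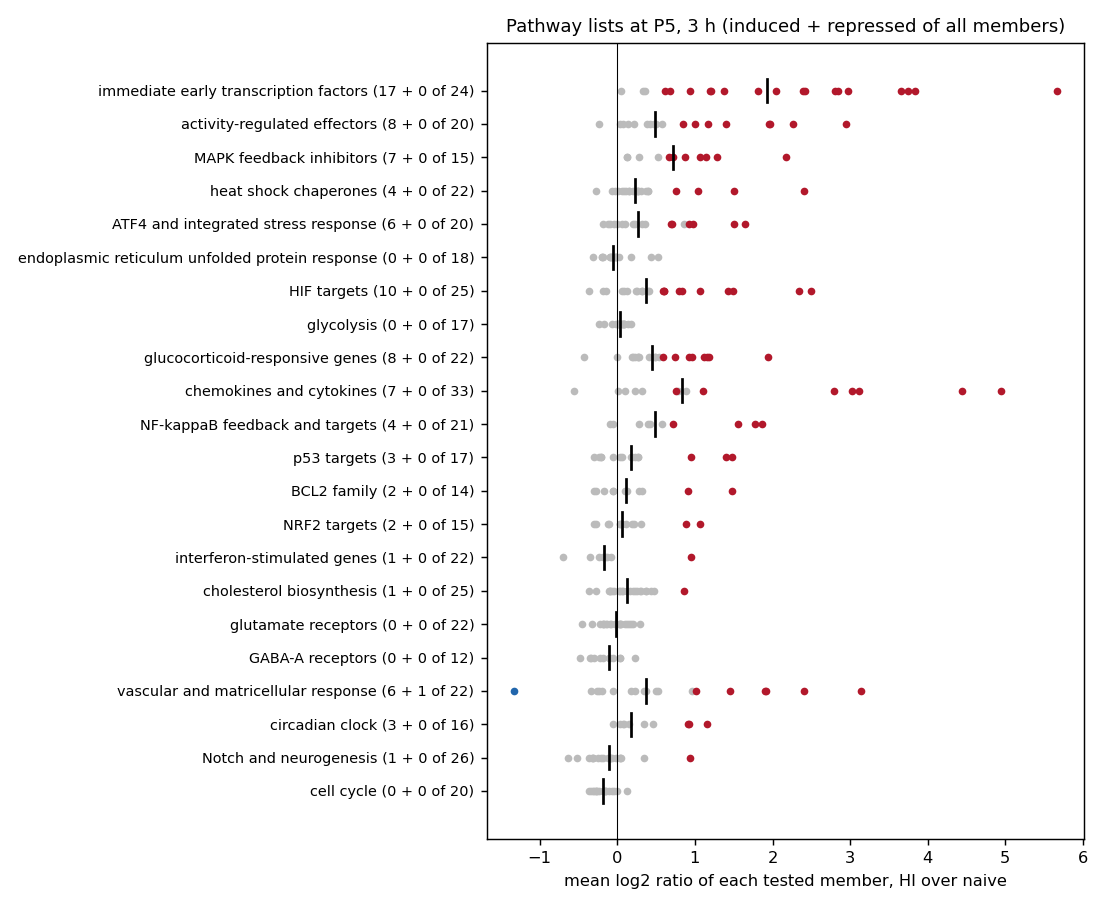
Mean log2 ratio of HI over naive at P5, 3 h, for each tested member of 22 pathway lists (points, the tested feature with the largest absolute ratio), with induced members in red, repressed in blue and the others in grey; the black bar is the list median over the brightest feature of each gene. Immediate early transcription factors reach furthest to the right (17 of 24 induced), and glycolysis, the unfolded protein response, both receptor lists and the cell cycle have no called member.

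Chemokine genes held the next highest ratios in the plot of the lists. Of 33 chemokines and cytokines 14 were tested and 7 were induced, against 2.24% of all tested genes. They were Ccl2, Ccl3, Ccl4, Ccl7, Ccl9, Cxcl10 and Csf1, and none was repressed. Ccl4, a chemokine made by microglia and macrophages, had naive signals of 11.6, 23.4 and 22.8 and HI signals of 494, 600 and 601, a 30.6-fold induction (limma, adjusted p = 7.08e-08), with 1 naive pool not well above background. Ccl3, a chemokine of the same cells, had ratios of 2.54, 2.85 and 2.97. Ccl2 and Ccl7 both act on the monocyte receptor CCR2. Ccl2 rose from 32.1, 44.3 and 47.0 to 262, 325 and 510, a mean log2 ratio of 3.12 ± 0.30, and Ccl7 had ratios of 3.75, 2.42 and 2.88 (mean 3.02 ± 0.68, adjusted p = 0.00136 by limma). The HI pools lay above every naive pool for each of these chemokines, which were named for their ratios on the same arrays.

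Of 33 cytokine list members 31 had a feature in the data used here and 14 were tested, and 6 of the 14 entered through the HI channel alone. Below the limit Cxcl1 had a mean ratio of 3.30, Il6 2.60, Tnf 2.11 and Il1b 1.47, none of them tested. Without the signal filter 8 of 33 were induced, and without 1 replicate 5 or 6 members. Ccl12 (0.88, adjusted p = 0.232 by limma) and Ccl6 (0.78, adjusted p = 0.175) were not called, and Cxcl12, a homeostatic chemokine, had -0.56 (adjusted p = 0.091). Ccl7 lost its call with normexp and left the test without replicate 3.

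The kappaB site, searched on both strands, was present in the promoter window of 5.14% of all genes and 6.53% of tested genes. It was present in 23 of 223 induced and 6 of 57 repressed genes, about the same share in both directions. Of 24 listed cytokine genes with an entry 7 held it: Ccl9, Cxcl1, Cxcl2, Cxcl10, Il6, Csf1 and Ifnb1. Of these, Ccl9, Cxcl10 and Csf1 were induced and the others were not tested. The Cxcl10 window is shown because it holds a pair of kappaB sites within 170 bases before its start (RefSeq, GRCm38.p6), marked in capitals.
Cxcl10, chr5:92348890-92349059, - strand: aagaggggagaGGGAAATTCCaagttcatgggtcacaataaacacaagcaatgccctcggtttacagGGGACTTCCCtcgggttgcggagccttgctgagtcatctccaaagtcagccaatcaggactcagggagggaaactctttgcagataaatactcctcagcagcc

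Genes that NF-kappaB induces, among them its own inhibitors, were called in 4 of 21 cases. Of the 21, 10 were tested, and 2.24% of all tested genes were induced. The called genes Bcl3 and Cd14 reached the signal limit through the HI channel alone. Without the filter 3 of the 21 were induced. Socs3, a feedback inhibitor of cytokine receptors, had ratios of 1.71, 1.82 and 1.77 (adjusted p = 7.99e-07 by limma). Cd14, a co-receptor for lipopolysaccharide, had 1.84, 1.88 and 0.94, Bcl3, a nuclear inhibitor-like protein, 2.37, 1.82 and 1.38, and Tnfaip3, the deubiquitinase A20, 0.84, 0.57 and 0.76. Bcl3 lost its call without any 1 replicate and also without the signal filter and with dye bias subtracted. Tnfaip3 lost its call without replicate 1 or 3, and Cd14 and Tnfaip3 lost theirs with normexp, which left 2 of the 4. Nfkbia, the first inhibitor in the loop, had 0.57 (adjusted p = 0.128 by limma), and 11 members were not tested. Of 22 interferon-stimulated genes 1 was induced, the transcription factor gene Irf1 (1.15, 1.04 and 0.68), whose call was lost without replicate 1 or 2. The other 7 tested members had ratios of -0.08 to -0.70 and none was called, and 20 of the 22 members had a feature in the data used here.

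Most of the listed markers of blood leukocytes were not tested at 3 h. Of 9 neutrophil markers 3 were tested, and S100a8 had ratios of 1.36, 1.09 and 1.82 and S100a9 1.16, 0.98 and 1.37, positive on all 3 arrays but without a call (limma, adjusted p = 0.115 and 0.211). Elane, a defining gene of neutrophil precursors, had 0.08. The summed signal of the tested neutrophil markers was 365 to 648 in the naive and 604 to 1180 in the HI pools. None of the 3 monocyte markers with a feature was tested, and Ccr2 was above background in no pool. Of 3 T cell markers Cd3e was tested and not called (0.28, adjusted p = 0.179 by limma). Cd3d and Cd3g were above background in no pool. The part of leukocytes in the chemokine ratios was not tested.

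Genes under HIF were induced in part. Of 25 HIF targets 22 were tested and 10 were induced, against 2.24% of all tested genes, and none was repressed. Among the induced were Vegfa, Adm, Slc2a1, Ankrd37, P4ha2, Kdm3a, Apln, Hmox1 and Pfkfb3. Adm, the vasodilator adrenomedullin, was the most even, with 2.32, 2.37 and 2.34 (5.08-fold, adjusted p = 7.6e-06 by limma). Vegfa, the vascular growth factor, had 1.03, 1.46 and 1.76, and Slc2a1, the glucose transporter of the blood-brain barrier and astrocytes, 1.43, 1.35 and 1.68. Kdm3a, Ankrd37 and P4ha2 stood just over the fold limit, all 3 at 1.51-fold, and the count was 6 without replicate 2 and 7 with normexp. The HI channel alone brought 2 of the members into the test, and without the signal filter 9 were induced. Prolyl hydroxylase Egln1 had -0.37, and Pdk1, Bnip3, Ndrg1 and Pfkfb4 were not called. The motif ACGTG or GCGTG, the core of a HIF site, was present in the promoter window of 46.7% of all genes, 67.6% of tested, 70.0% of induced and 73.7% of repressed genes.

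None of 17 glycolytic genes was called, and the 16 tested had mean ratios of the brightest feature between -0.24 and 0.13. Ldha, the lactate-forming subunit, had 0.17 and Aldoa -0.17. Hk2, the inducible hexokinase, lay below the signal limit with 1.55 and was not tested.

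Of 22 genes of vessels and matrix 19 were tested and 6 were induced, against 2.24% of all tested genes. They were Ccn1, Angpt2, Esm1, Adamts1, Plaur and Timp1. Of the members tested, 3 reached the signal limit through the HI channel alone, among them Esm1 and Plaur. Without the filter 6 were induced. Esm1, a proteoglycan of endothelial tip cells, had ratios of 2.42, 2.20 and 2.61, a 5.32-fold induction, and Adamts1, a matrix protease, 1.91, 1.80 and 2.04. Plaur, the urokinase receptor, had 1.90, 1.70 and 2.09. The VEGF receptor genes Flt1 (-0.26) and Kdr (-0.24) were not called, and the endothelial markers tested ran from -0.42 (Cldn5) to 0.00 (Cdh5) with none called. Sphk1, on the same list, was repressed.

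Among 22 heat shock chaperones 21 were tested and 4 were induced, against 2.24% of all tested genes. Hspa1a, the inducible HSP70, had naive signals of 107, 159 and 76.3 and HI signals of 545, 1210 and 293, a 5.3-fold induction (limma, adjusted p = 0.00107). Hspb1, the small chaperone HSP27, had ratios of 1.61, 1.69 and 1.20. Bag3, a cofactor of HSP70, had 1.04, 1.12 and 0.96, and Hspb8, its small chaperone partner, 0.63, 1.04 and 0.58. Both of these lost the call without replicate 1 or 2. The other 17 tested members had -0.27 to 0.39, among them Hsph1 (0.39), Dnajb1 (0.30) and Hsp90aa1 (0.25), and Hspa1b was not tested. A heat shock element of 3 alternating GAA and TTC units was present in the window of 0.662% of all genes, of Hsph1, Hspd1, Hspe1 and Chordc1 on the list, and of 0 of 223 induced genes with an entry.

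The integrated stress response and the unfolded protein response of the endoplasmic reticulum differed in their counts. Of 20 ATF4-linked genes 18 were tested and 6 were induced, against 2.24% of all tested genes. Atf4 itself had naive signals of 17300, 22600 and 16900 and HI signals of 38000, 40900 and 32600, a 1.97-fold induction (limma, adjusted p = 3.68e-07). Ppp1r15a, which directs the dephosphorylation of eIF2alpha, had ratios of 1.48, 1.53 and 1.49, Cebpb 1.66, 1.53 and 1.71 and Chac1, a glutathione-degrading enzyme, 1.19, 0.88 and 0.69. Ddit3 (0.69) and Ddit4 (0.70) were also induced. The amino acid synthesis genes Asns (-0.09), Psat1 (-0.19) and Phgdh (0.06) were not called. Of 18 genes of the unfolded protein response 0 were called. Hspa5, the chaperone BiP, had 0.46, 0.30 and 0.83, with an adjusted p of 0.0099 (limma) but a 1.44-fold change. The 16 tested members had a median of -0.06.

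Apoptosis and oxidative stress lists held 2 or 3 called genes each, against 2.24% of all tested genes induced. The tested members were 15 of 17 p53 targets, 12 of 14 BCL2 family genes and 13 of 15 NRF2 targets. The HI channel alone brought 2, 1 and 1 of these into the test, among them the induced genes Gadd45a, Pmaip1 and Osgin1. Of 17 p53 targets 3 were induced, Pmaip1, Btg2 and Gadd45a, whereas Cdkn1a (0.27), Mdm2 (0.26) and Bax (-0.30) were not called. Pmaip1, the BH3-only protein Noxa, had 1.51, 1.51 and 1.43. Of 14 BCL2 family genes 2 were induced, Pmaip1 and the survival factor gene Mcl1 (0.98, 0.86 and 0.89), although a second Mcl1 feature had 0.14. Of 15 NRF2 targets 2 were induced. Hmox1, heme oxygenase, had 0.99, 1.36 and 0.84, and Osgin1 0.99, 0.99 and 0.68. Osgin1 lost its call with normexp and left the test without replicate 2. The remaining tested NRF2 targets had -0.30 to 0.30.

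Of 22 genes that answer glucocorticoids 20 were tested. Of these, 8 were induced and none was repressed, against 2.24% of all tested genes induced. Cebpd, a transcription factor of the acute phase, had ratios of 1.94, 2.01 and 1.86, and the metallothionein genes Mt1 (1.37, 0.99 and 1.13) and Mt2 (1.32, 1.04 and 1.18) rose about alike. Arl4d had 1.38, 0.83 and 1.15. Per1, Pdk4, Angptl4 and Sdc4 were also induced. Fkbp5, the co-chaperone that feeds back on the receptor, had -0.11, -0.07 and 0.14 (adjusted p = 0.968 by limma), and Tsc22d3 (0.41) and Sgk1 (0.54) were not called. Of 16 circadian clock genes 10 were tested and 3 were induced: Per1 (0.92, 0.75 and 1.08), Bhlhe40 (1.36, 0.82 and 1.30) and Nr1d1 (1.20, 0.78 and 0.76). Nr1d1 lost its call without replicate 1 and with normexp.

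Lists of neuronal and developmental function held almost no called gene, where 2.24% of all tested genes were induced and 0.532% repressed. None of 22 glutamate receptor genes and none of 12 GABA-A receptor genes was called. Gria2, the AMPA receptor subunit that limits calcium entry, had -0.46 (adjusted p = 0.139 by limma) and Gabrb2 -0.48 (adjusted p = 0.0127, 1.4-fold). None of 20 cell cycle genes was called, and 16 of the 17 tested had a brightest feature below 0, with a list median of -0.19. Of 26 genes of Notch signaling and neurogenesis 1 was induced, Id1 (0.73, 0.90 and 1.17). Eomes, a transcription factor of intermediate neuronal progenitors, had -0.64 (adjusted p = 0.11 by limma). Of 25 cholesterol genes 1 was induced, Insig1 (0.75, 1.03 and 0.79), which retains the SREBP complex in the endoplasmic reticulum.

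The 12 most repressed named genes changed less than the induced ones. Sphk1, which makes sphingosine-1-phosphate, had the brightest naive signal among them. Its naive signals of 979, 1930 and 816 stood against 381, 682 and 375 in the HI pools, a mean log2 ratio of -1.33 ± 0.19 or a 2.51-fold lower level (limma, adjusted p = 1.38e-05), and a second feature gave -1.21. Kcns3, a modulatory potassium channel subunit, had -0.86, -1.21 and -1.49. Homez, a homeobox gene, had -0.87, -1.05 and -0.71 and Rsl1, a zinc finger repressor gene, -0.93, -0.93 and -0.85. The naive and HI signals of Sphk1 and Rsl1 did not overlap between the pools. Those of Homez and Kcns3 did (for Kcns3 94.6, 241 and 99.5 against 52.2, 104 and 35.5), so that the pairing of pools on an array carries their result.

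The remaining 8 were Tlr12 (-1.39 ± 0.54), Osr1 (-1.07 ± 0.22), Nudt7 (-0.94 ± 0.27), P2ry13 (-0.91 ± 0.25), Wnt6 (-0.88 ± 0.32), Tmem204 (-0.88 ± 0.09), Tmsb15b1 (-0.87 ± 0.38) and Stard8 (-0.82 ± 0.20). All of them but Tmsb15b1 lost the call with normexp. Naive and HI signals overlapped between the pools for Tlr12, Osr1, Nudt7, Wnt6, Tmsb15b1 and Stard8. Those of P2ry13 did not, and those of Tmem204 met at 102. Tlr12, a Toll-like receptor, had an HI signal of 71.8, 107 and 9.64, the last not well above background, and lost its call without replicate 1 or 3. Without replicate 2, Tlr12, Kcns3, Osr1, P2ry13, Wnt6 and Stard8 left the test. Tmsb15b1 lost its call without replicate 2, and its other tested features, at -0.58 and -0.52, were not called.

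Over 14 lists of cell type markers 3 genes were repressed and none was induced, against 0.532% of all tested genes repressed. They were 1 of 5 tested markers of oligodendrocyte precursors, 1 of 11 of microglia and 1 of 7 of choroid plexus. Olig2, the lineage factor of oligodendrocyte precursors and some progenitors, had naive signals of 418, 610 and 398 and HI signals of 249, 387 and 241, a mean log2 ratio of -0.71 ± 0.05 (limma, adjusted p = 6.53e-06). The other 4 precursor markers were Pdgfra (-0.18), Cspg4 (-0.14), Olig1 (-0.15) and Sox10 (-0.34), none of them called. P2ry13, an ADP receptor of microglia, was the called member of 12 microglia markers, in which Gpr34 (-0.52), Cx3cr1 (-0.48), Tmem119 (-0.45) and P2ry12 (-0.35) were below 0 and Fcrls (0.23) was above. Of the 11 tested microglia markers 3 were above 0, and the list median was -0.16, against -0.03 over all named genes. The summed signal of the microglia markers was 29500 to 56700 in the naive pools and 31700 to 62800 in the HI pools. Kcne2, a potassium channel subunit of choroid plexus, had -0.65, -0.57 and -0.63, whereas Ttr, the most abundant transcript of that tissue, had 0.12. The Kcne2 call was lost without any 1 replicate, P2ry13 left the test without replicate 2, and with normexp those of Olig2, P2ry13 and Kcne2 were lost. In whole hemispheres fewer cells of a type and less RNA per cell cannot be told apart. None of the 9 neuron, 7 astrocyte or 6 oligodendrocyte markers was called, with Rbfox3 at 0.14, Gfap at 0.44 and Mbp at 0.49.

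The 3 h effect was then set against the effect in P5 pups at 6 and 24 h, as the difference of log2 ratios in the same model. That model did not pair the arrays of a slide. Between 3 and 6 h 7 genes differed (0.0451% of those tested, 163 at an unadjusted p under 0.05), 1 higher and 6 lower at 6 h. Egr2 went from 2.85 ± 0.31 at 3 h to 0.89 ± 0.35 at 6 h, a difference of -1.96 (SE 0.29, adjusted p = 0.0228 by limma), and Nr4a1 from 2.80 ± 0.11 to 1.39 ± 0.08 (adjusted p = 0.0382). Btg2, an antiproliferative gene, fell from 1.40 ± 0.27 to 0.18 ± 0.18, and Klf6, a zinc finger factor, from 0.61 ± 0.12 to -0.09 ± 0.11, and its call at 3 h was lost without replicate 1 or 3. For each of these 4 genes the arrays of the time points did not overlap, which is a description, since the genes were chosen by this difference on the same arrays. The number of genes rests on single arrays: it was 0 without replicate 1 or 3 of either time point, and 2 and 4 without replicate 2 of 3 h and of 6 h. With the replicate number as a block, which at P5 is the slide, it was 17.

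By 24 h the difference from 3 h covered 310 genes (2.01% of those tested), 137 higher and 173 lower at 24 h. Fos fell from 5.67 ± 0.31 to 1.75 ± 0.47 (difference -3.92, SE 0.34, adjusted p = 7.5e-06 by limma), Fosb from 3.84 to 0.48, Egr2 from 2.85 to -0.02, Egr1 from 2.97 to 0.26 and Nr4a1 from 2.80 to 0.10. The Fosb feature was under the signal limit at 24 h. Of the 173 genes, 118 were induced at 3 h, against 2.24% of all genes tested there. The same 3 h arrays enter both calls, so this count is a description. Among genes higher at 24 h were Saa3, an acute phase gene, with -0.30 ± 0.45 at 3 h and 4.50 ± 1.83 at 24 h, the transglutaminase gene Tgm1 (0.89 and 4.19), both under the signal limit at 3 h, and Spp1, or osteopontin (0.87 and 3.07). The count was 184 to 220 when 1 array of either time point was left out and 179 with normexp. The lowest counts came without replicates 1 and 3 of 3 h (184 and 194) and replicates 2 and 3 of 24 h (192 and 199).

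**Figure D4:**
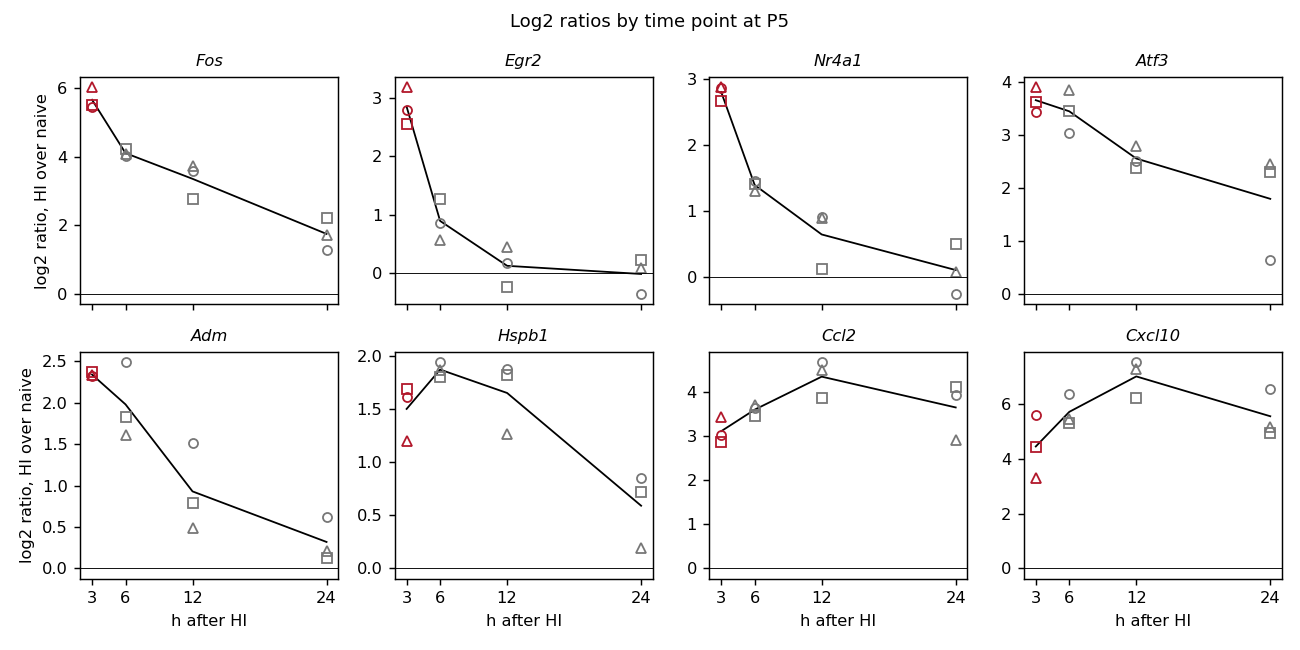
Log2 ratio of HI over naive at P5 against hours after HI for 8 genes, with 1 symbol per array (circle, square and triangle for replicates 1 to 3, red at 3 h) and a line through the means. Fos, Egr2, Nr4a1, Atf3 and Adm are highest at 3 h, Hspb1 at 6 h and Ccl2 and Cxcl10 at 12 h.

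The chosen genes of the time course followed different paths after 3 h. Adm had means of 2.34, 1.98, 0.93 and 0.32 at 3, 6, 12 and 24 h, and Atf3 had 3.65, 3.44, 2.55 and 1.79. The Adm feature was under the signal limit at 24 h. Ccl2 had 3.12, 3.61, 4.36 and 3.66, and Cxcl10 4.44, 5.70, 6.99 and 5.54, so that neither chemokine was at its highest mean at 3 h. The arrays of 3 h and 6 h overlapped for Adm, Atf3 and Cxcl10 and not for Ccl2 and Hspb1, and none of these 5 differences passed the test. Time and position on the slide cannot be told apart, since the 3 h array had the same position on every slide.

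Against the 3 h effect in P10 pups, 35 genes differed (0.206% of 17023 tested, 769 at an unadjusted p under 0.05), 21 with a higher and 14 with a lower ratio at P10. Spock1, a brain proteoglycan, had 0.19, -0.02 and 0.00 at P5 and 1.79, 1.19 and 1.64 at P10 (difference 1.48, SE 0.23, adjusted p = 0.0219 by limma). The features of Spock1, Cbl and D630045J12Rik entered this comparison at P5 and were not tested at P10, and that of Siah3 was not tested at P5. The chaperone gene Hspa8 differed by 1.30 in 1 feature, with -0.13 ± 0.18 at P5 and 1.17 ± 0.30 at P10, and the lipase gene Lpl by 0.98. Osgin1 was the reverse case, with 0.99, 0.99 and 0.68 at P5 and -0.09, -0.02 and 0.09 at P10 (difference -0.90, SE 0.17, adjusted p = 0.0435 by limma), although its call at P5 was lost with normexp. Of the 35 genes, 2 were induced at P5 and had a lower ratio at P10, 1 was induced and had a higher one, and 32 were not called at P5. Of all genes tested at P5, 2.24% were induced and 0.532% repressed, so that most genes of any kind were not called there. Fos (5.67 and 5.58) and Adm (2.34 and 2.11) had close means at both ages, while Hspb1 had 1.5 and 0.69 and Gdf15 3.93 and 1.95. None of these 4 differences passed the test (limma, adjusted p of 0.901, 0.747, 0.14 and 0.107). The Gdf15 feature was under the signal limit at P10.

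**Figure D5:**
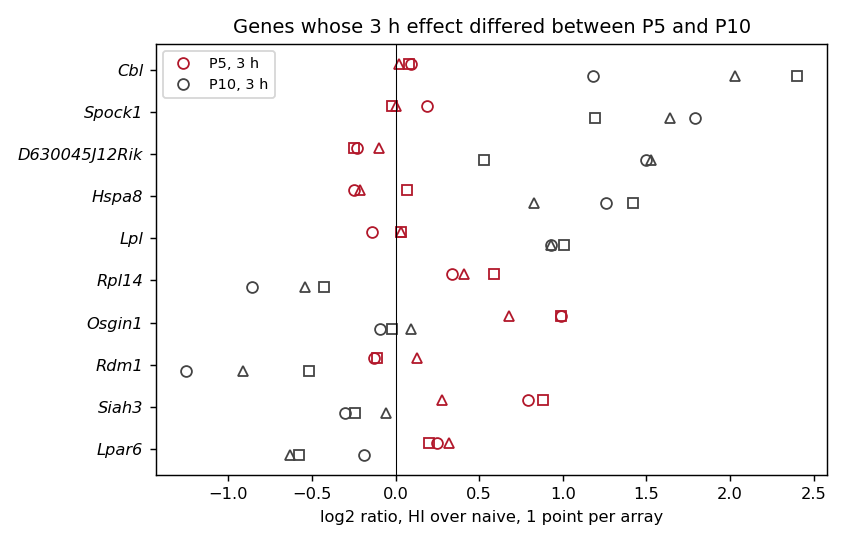
Log2 ratio of HI over naive on each array at P5, 3 h (red) and P10, 3 h (dark grey) for the 5 genes with the largest difference in each direction among those called, with circle, square and triangle for replicates 1 to 3. The arrays of the 2 ages do not overlap for any of the 10 genes, and Cbl, Spock1 and D630045J12Rik lie near 0 at P5 and above 0.5 at P10. The genes were chosen by their difference on these same arrays, so the lack of overlap is a description.

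The number of genes that differed between the ages rests on single arrays. It was 27, 4 and 1 without P10 replicates 1, 2 and 3, and 0, 1 and 0 without P5 replicates 1, 2 and 3. With the replicate block inside each age it was 434, with a filter on features well above background 6, and with normexp 1. Age and slide cannot be told apart, because each slide held 1 age.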

How the data were processed

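RNA of HI (Cy5) and naive (Cy3) pools was measured on 2-color Agilent arrays, 3 per age and time point. The authors extracted them with Agilent Feature Extraction 10.5.1.1 (from the submitters' processing notes). The deposited intensity values are, per the file headers, processed signals (background subtracted, dyes brought together by Lowess within each array), and the deposited log10 values are the ratio of red to green. The log2 ratio was computed here from the processed signals, without non-uniform and outlier spots. Features were named through RefSeq, and 12002 kept the file's name. Just inside the signal limit stood Cfap161 (mean signal 100.0, log2 ratio 0.31) and just outside Ccdc93 (99.9 and 0.33).

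limma 3.58.1 (R 4.3.3, statmod 1.5.0) was fitted to the 24 HI arrays with a coefficient for each of the 8 groups. The fit was also run on simulated ratios without a slide effect, which cannot show how the slides bear on the calls. A gene was called when 1 of its features was, and its printed value is that of the tested feature with the largest absolute ratio. List medians use the brightest feature. Named genes are the 12 most changed in each direction, the first and up to 4 most changed members of each list, and the 5 most different in each contrast. Some list members are not reported here. Other list members and the genes of the time course were added after their values were seen. Members and lists were chosen with earlier results of these data known. The p-values measure the spread between pools, and the number of arrays limits precision.

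All 4 P5 arrays of a replicate number lay on 1 slide, and their deviations from the group means correlated with r of 0.27, 0.32 and 0.49 between 3 and 6 h, 0.31, 0.07 and 0.41 between 3 and 12 h, and 0.12, 0.17 and 0.29 between 3 and 24 h. The main model did not use this pairing, since it held no slide or replicate term. The replicate block took the numbers to pair the P5 arrays of 3, 6 and 24 h. Alternatives covered the filter, the arrays fitted, slide and replicate blocks, dye bias, the series table and normexp with loess. They also covered centring, the test, the spread and leaving out each array. Dye bias was taken from the dye-swapped naive pools of P2 and P15 pups, not from P5.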

Additional observations from a re-analysis of the deposited data

Results flagged for a closer look

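The following effects of HI at P5, 3 h differed from those of another age or time point by a test of the difference itself (limma, all with an adjusted p under 0.05). Values are differences of mean log2 ratios, the other group minus P5 at 3 h. Against P10 at 3 h the ratio was higher at P10 for Cbl (1.80), Spock1 (1.48), D630045J12Rik (1.38), Hspa8 (1.30) and Lpl (0.98), and lower for Rpl14 (-1.06), Osgin1 (-0.90), Rdm1 (-0.86), Siah3 (-0.85) and Lpar6 (-0.72). Of these 10 genes, Osgin1 was induced at P5, although its call was lost with normexp, while Cbl, a ubiquitin ligase gene, lay between 0.02 and 0.09 on the 3 arrays. Cbl, Spock1 and D630045J12Rik were not tested at P10, and Siah3 not at P5.

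Against P5 at 6 h the ratio was higher at 6 h for Ahnak (1.48) and lower for Egr2 (-1.96), Nr4a1 (-1.41), Btg2 (-1.23), Hsd17b7 (-0.74) and Klf6 (-0.70). The Ahnak value comes from a feature under the signal limit at 3 h. Hsd17b7, an enzyme of cholesterol synthesis, had 0.18 ± 0.16 at 3 h and -0.56 ± 0.09 at 6 h.

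Against P5 at 24 h the ratio was higher at 24 h for Saa3 (4.80), Tgm1 (3.30), Lilrb4a (2.63), Cd109 (2.63) and Spp1 (2.20), and lower for Fos (-3.92), Fosb (-3.36), Egr2 (-2.87), Egr1 (-2.71) and Nr4a1 (-2.70). Of these, Saa3, Tgm1, Lilrb4a and Cd109 were not tested at 3 h, and Fosb was not tested at 24 h. Saa3 spread widely at 24 h, with 3.73, 6.59 and 3.17. Groups of 3 arrays were not tested for outlying arrays.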

How the results depend on the processing

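The induced count kept within 1.5 times of 341 under every filter, block, dye, centring, normalization and spread setting tried (279 to 445) and under the uncorrected t-test (398), but was 0 with the methods' t-test after Benjamini-Hochberg correction and 152 with a 2-fold change on 2 of 3 arrays and no test. Leaving out 1 array gave 248 to 285. Repressed genes numbered 148 without a signal filter, 131 with features well above background, 15 with normexp, 0 with the corrected t-test and 8 with the 2-fold rule, and 57 to 85 without 1 array. The split of 341 induced to 81 repressed thus became 279 to 15 with normexp.

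For P10 minus P5 at 3 h the 35 genes became 0 without a filter and with only the arrays compared, 6 with features well above background, 97 with slide as a random block, 1 with normexp, and 0 to 27 without 1 array. For 6 h minus 3 h the 7 genes became 0 without a filter, 2 with features well above background, 20 with slide as a random block, and 0 to 4 without 1 array. For 24 h minus 3 h the 310 genes became 191 without a filter, 179 with normexp and 184 to 220 without 1 array. With the spread moderated over all features, a setting chosen after the data were seen, they were 1, 2 and 234, and over the features of each comparison 64, 7 and 341. The causes were not tested.

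The replicate block gave 360 induced and 89 repressed genes, and 434, 17 and 432 genes in the contrasts with P10, 6 h and 24 h. It changed no call of the 71 named genes called at 3 h. Of these, 15 lost the call with normexp and 10, 14 and 7 were not called without replicates 1, 2 and 3, of which 7 without replicate 2 and 1 without replicate 3 had left the test. Dim signals limit what can be said: 89 of 439 pathway genes were not tested, and 32 untested list genes had ratios over the fold limit that were not tested.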

Other observations

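These gene families were picked after their values at P5, 3 h were seen, and are given as values only. Of 11 small nucleolar RNA host genes on the arrays, 6 were induced, against 2.24% of all tested genes: Snhg17 (mean log2 ratio 1.34 ± 0.43), Snhg1 (1.18 ± 0.08), Snhg5 (1.12 ± 0.18), Snhg15 (1.08 ± 0.06), Snhg16 (1.06 ± 0.11) and Snhg12 (1.02 ± 0.28). The host transcripts carry snoRNAs in their introns, and the other 5 ran from -0.15 (Snhg3) to 0.36 (Snhg6). The nuclear noncoding RNAs Malat1, with ratios of 1.70, 1.03 and 1.78, and Neat1, with 1.49, 1.77 and 1.68, were both induced. All 3 Gadd45 genes, which encode small stress proteins, were induced, with means of 0.95 (Gadd45a), 2.26 (Gadd45b) and 1.75 (Gadd45g).

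On the repressed side stood the 3 genes of the chaperonin-like Bardet-Biedl proteins, which help to assemble a complex needed at the primary cilium. Of all tested genes 0.532% were repressed. Mkks had ratios of -0.59, -0.83 and -0.54, Bbs12 -0.67, -0.71 and -0.71, and Bbs10 -0.56, -0.59 and -1.13. Bbs10 was dim, with naive signals of 74.1, 137 and 127 and HI signals of 50.4, 90.9 and 58.1. It reached the signal limit through the naive channel alone. Most repressed calls were lost with normexp, and its values for these 3 genes are not reported here. None of the 6 other Bardet-Biedl genes tested was called, with means from -0.34 (Bbs9) to 0.47 (Bbs4). Among Sox genes of the glial lineage Sox8 was repressed (-0.60 ± 0.16), while Sox10 (-0.34) and Sox9 (0.43) were not called. Of 274 tested genes named Zfp, 3 were induced and 3 repressed (1.09% each, against 2.24 and 0.532% of all tested genes).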
